A study of Mus musculus with 12 samples.

Results

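The comparison described here is that of M1 with M2 macrophages grown from mouse bone marrow, 6 of the 12 one-colour Agilent arrays of a study of kidney macrophages in a mouse model of stone disease. The members were taken by sample title, which gave 3 M1 and 3 M2 samples, numbered 2, 3 and 4 in each group, and every gene measurable on them was described. The other 6 arrays hold CD11b+/CD11c+ kidney macrophages of wild-type and op/op mice given glyoxylate, for which the marrow cells served as controls. Per the labels, the M1 stimuli were LPS with GM-CSF and the M2 stimuli M-CSF with IL-4. All 6 samples have the strain B6C3Fe a/a-Csf1op/J and the tissue bone marrow. This mixed-background strain carries the op mutation of Csf1, the gene of M-CSF, and the labels of the marrow samples do not say whether donors were wild type or op/op, nor whether they had received glyoxylate. Culture times, doses and the purity of the cells are not given in the sources used here. The groups differ in growth factor and in stimulus, so these cannot be told apart, and with no unstimulated marrow sample neither group is a baseline. The labels do not state whether replicates are different animals or cultures, and p-values therefore reflect only how far these arrays spread, possibly for technical reasons.

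Macrophages change their gene expression with the signals they meet, and the names M1 and M2 stand for the ends of that range in culture. LPS, a part of the bacterial cell wall, acts through TLR4 and turns on NF-kB and the interferon regulatory factors. That leads to inflammatory cytokines and, through secreted type I interferon, to antiviral genes. IL-4 acts through STAT6 and turns on arginase, mannose receptor, resistin-like and chitinase-like genes. GM-CSF and M-CSF are the growth factors that let marrow precursors survive, divide and become macrophages.

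A level is the log2 scanner signal of a gene's brightest probe minus the 75th percentile of its array, so that 0 is the 75th percentile. A difference is the M1 mean minus the M2 mean of these levels, with the SE of the limma fit of the 6 arrays after ± and n = 3 arrays per group. A fold is that difference turned to a linear scale. A gene was called when its Benjamini-Hochberg adjusted p was under 0.05 over all genes tested, and only called genes are written as higher in a group. Levels of different genes were not compared, because each probe has its own response.

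The arrays of a group were close to each other. Pearson's r over the genes tested was 0.9924 to 0.9928 within M1, 0.9866 to 0.9917 within M2 and 0.9405 to 0.9458 between the groups. The first principal component held 79.6% of the variance and separated the groups. Probes that Feature Extraction marked as well above background made up 72.6% to 75.1% of probes on the M1 arrays and 64.3% to 65% on the M2 arrays. The M1 arrays lay in the upper row of the slide and the M2 arrays in the lower row, so row and group cannot be told apart. Replicate 4 stood apart within both groups by Xist, the RNA of the inactive X chromosome, named after its values were seen. Its levels were -5.09, -4.97 and 1.42 on M1 replicates 2, 3 and 4 and -5.92, -5.45 and 2.75 on M2 replicates 2, 3 and 4, while the Y-linked genes Ddx3y, Eif2s3y and Uty were well above background on all 6 arrays. M2 replicate 4 also stood apart on the second principal component (42.8, against -21.9 to 7.25 on the other 5 arrays), which held 8.63% of the variance. Without replicate 4 of both groups, an alternative chosen after these values were seen, 7186 genes were called and 12 named genes lost their call. No probe was saturated. The number of arrays limits the precision.

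Of 26192 genes tested, 9806 (37.4%) were called. M1 was higher in 4621 of them (17.6% of genes tested) and M2 in 5185 (19.8%). The unadjusted p was under 0.05 for 12071 genes. Large differences lay mostly on the M1 side. At 2-fold or more, 1743 called genes were higher in M1 and 1272 in M2. At 8-fold or more the numbers were 291 and 81, and at 32-fold or more 71 and 8. The median difference over all genes tested was -0.00, which is the value to set beside the medians of the gene lists in the following paragraphs. The 3 M1 and 3 M2 levels did not overlap for 13520 genes (51.6%). On no M2 array were 1341 of the genes well above background, and on no M1 array 44. For such genes the fold is given as a lower bound on these signals, taken, on each array of the dim group, against its dimmest signal that was well above background. The bound is smaller against a higher floor, the 10th percentile of those signals, which is given in brackets where a bound is first printed. Against the dimmest signal, the bound reached 2-fold for 145 of the 1341 genes and for all 44 of the others. That dimmest signal lay at levels of -3.907 to -3.874 on the M2 arrays and -4.921 to -4.745 on the M1 arrays. A gene of equal level can therefore be well above background in M1 alone, and the counts of 1341 and 44 are not on an equal footing. Sizes of dim genes also depend on the background correction. With normexp, which models the background and adds an offset of 50, the fold of 68 of the 255 genes named here was smaller by over 1.5 times, and for 19 of the 22 with a bound the normexp fold lay under it. Their directions did not change.

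**Figure D1:**
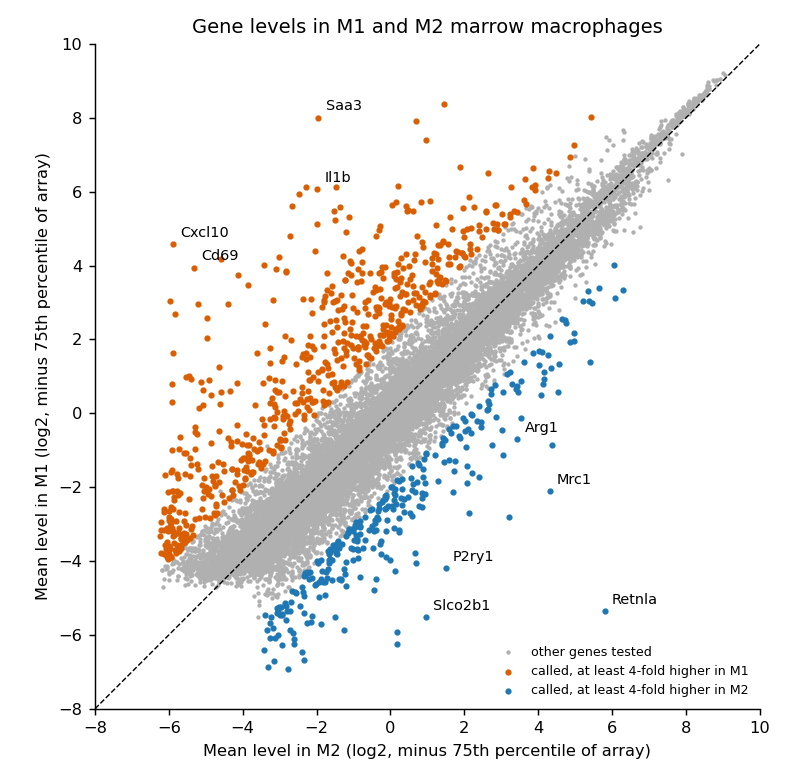
Mean level in M1 (y axis) against mean level in M2 (x axis) for the 26192 genes tested, both as log2 signal minus the 75th percentile of each array, n = 3 arrays per group. Orange points are called genes higher in M1 and blue points called genes higher in M2, both at 4-fold or more (633 and 294 genes), grey points are the rest, and the dashed line marks equal levels. Cxcl10 and Saa3 lie farthest above the line, and Retnla lies farthest below it.

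Of the 15 called genes with the largest difference on the M1 side, 6 were well above background on arrays of both groups and 9 on M1 arrays alone. They include chemokines, interferon-stimulated genes, complement and acute-phase proteins. Saa3, a serum amyloid A acute-phase protein, had levels of 8.12, 8.05 and 7.84 on the M1 arrays and -1.95, -2.38 and -1.53 on the M2 arrays. That is a 995-fold difference (9.96 ± 0.22, adjusted p = 1.85e-06), and the M2 arrays spread over a wider range than the M1 arrays. Cfb, complement factor B, was 339-fold higher and Acod1, which makes itaconate from an intermediate of the citric acid cycle, was 311-fold higher. Cd69, an early activation antigen, was well above background on all 3 M1 arrays and on no M2 array, and was at least 229-fold higher in M1 (131-fold with the higher floor, adjusted p = 1.23e-05), against 92.4-fold with normexp. Ms4a4b, a membrane protein, was at least 200-fold higher (114-fold), against 71.3-fold with normexp. Another Ms4a4b probe gave a difference of 4.99 in place of 7.88.

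On the M2 side, 4 of the 15 genes with the largest difference were well above background on M2 arrays alone. The largest difference belonged to Retnla, which encodes the secreted protein RELM-alpha. Its levels were 5.80, 5.90 and 5.71 on the M2 arrays and -5.61, -5.06 and -5.41 on the M1 arrays, and no M1 array was well above background. The fold was at least 1578-fold (822-fold with the higher floor, adjusted p = 8.51e-07), and 311-fold with normexp. Slco2b1, an organic anion transporter, was at least 51.4-fold higher in M2 (28.7-fold) and Scn3a, a sodium channel subunit, at least 32.1-fold (16.7-fold), against 12.3-fold and 8.15-fold with normexp. P2ry1, a receptor for ADP, had levels of 1.54, 1.44 and 1.51 on the M2 arrays and -4.23, -4.31 and -4.05 on the M1 arrays, a 51.6-fold difference (16.1-fold with normexp). St6gal1, a sialyltransferase, was 21.7-fold higher in M2, Tmem26 27.9-fold, and Bex1 65.1-fold with a wide error (-6.02 ± 0.82). Gpd1, the cytosolic glycerol 3-phosphate dehydrogenase, was 26.8-fold higher and was well above background on 2 of the 3 M1 arrays.

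The cells carried the genes that define macrophages in both groups. Of 18 macrophage identity genes, 17 were well above background on all M1 arrays and 16 on all M2 arrays. Of 17 tested, 9 were higher in M1 and 5 in M2. Csf1r, the receptor for M-CSF, named after its value was seen, had levels of 4.83, 4.70 and 4.76 on the M1 arrays and 5.54, 5.45 and 5.43 on the M2 arrays and was 1.63-fold higher in M2. Other Csf1r probes differed by -1.01 and -0.18, the latter not called. Csf1 itself, likewise named after its value was seen, was not called by its brightest probe (0.07 ± 0.11), and its other probes differed by 0.76 and 0.86. Fcgr1, the high-affinity IgG receptor CD64, was 29-fold higher in M1, and Cd14, the LPS co-receptor, was 29.2-fold higher in M1. Adgre1, which encodes the F4/80 antigen, was 2.42-fold higher in M1. Lgals3, which encodes galectin-3, was 3.28-fold higher in M2.

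Markers of other cell types were measured too, and their part in the results was not tested. Over all genes tested, 17.6% were higher in M1 and 19.8% in M2, the shares to set beside the counts by gene. Counts near these shares, such as 2 of 11 or 2 of 13, show nothing particular to a list. Summed linear signals, in units of each array's 75th percentile, were 94 to 105 in M1 and 43.8 to 52.1 in M2 for 18 dendritic cell markers (5 of 12 tested higher in M1, 3 of them without M2 replicate 3, and 2 in M2), of which Cd209a and Dpp4 were above background on no array. Against the direction of that sum, Itgax, which encodes CD11c, was 17.8-fold higher in M2. Bst2, another member, is also listed among the interferon-stimulated genes. Neutrophil markers summed to 358 to 436 in M1 and 286 to 327 in M2 (15 of 16 above background on all M1 arrays, 16 on all M2 arrays), but by gene 3 of 16 were higher in M1 and 7 in M2, with a median difference of -0.59. A sum is carried by its brightest probes. Within that list Ly6g was 4.92-fold higher in M1, and Ltf, lactoferrin, 5.77-fold and Mpo, myeloperoxidase, 2.69-fold higher in M2. Monocyte markers summed to 29.4 to 31.7 in M1 and 72.9 to 93.3 in M2. Chil3, 1 of the 10 and also listed as an M2 marker, makes up most of the M2 sum. The direction of that sum therefore says little of the other members. By gene 3 were higher in M1 and 3 in M2 (median 0.13). Plac8 and Vcan were 4.13-fold and 2.52-fold higher in M1 and F13a1 2.88-fold higher in M2. Stem and progenitor markers summed to 26.1 to 31.6 in M1 and 7.64 to 8.16 in M2, with Ly6a 12.2-fold higher in M1 and Cd34 2.28-fold higher in M2. By gene, 2 of 11 were higher in each group, and the 2 in M2 became 1 without any one array other than M1 replicate 3. T and NK cell markers were 19.3 to 24.3 in M1 and 24.1 to 27 in M2, with 2 of 13 higher in each group (1 in M2 without M1 replicate 2 or 3). Of the 17 on the array, 13 were well above background on all M1 arrays and 10 on all M2 arrays. Cd3g, Cd8a, Ncr1 and Klrb1c, which are among their defining markers, were above background on no array. The sums were 11.9 to 15 and 14.8 to 15.2 for B cell markers, 154 to 208 and 157 to 186 for stromal and endothelial markers, 79.9 to 87.2 and 49.1 to 60.5 for erythroid and megakaryocyte markers, and 7.04 to 7.76 and 3.72 to 4.16 for mast cell, basophil and eosinophil markers, in M1 and M2 respectively. Of 16 stromal and endothelial markers tested, 6 were higher in M1 and 1 in M2 (0 without any one M2 array), with a median of 0.48, among them Dcn, decorin (9.22-fold), and Col3a1, a collagen (4.28-fold), both higher in M1. In such bulk samples, fewer cells of a type and less RNA per cell cannot be told apart.

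M1 markers were higher in M1 almost throughout. Of 26 listed, 25 were tested, and of these 23 were higher in M1 and none in M2, with a median difference of 4.86. The chemokine Cxcl10 had levels of 4.69, 4.39 and 4.66 on the M1 arrays and -5.92, -5.86 and -5.88 on the M2 arrays. No M2 array was well above background for it, and the fold was at least 355-fold (204-fold with the higher floor, adjusted p = 4.44e-07), against 154-fold with normexp. Il1b, the precursor of interleukin-1 beta, had levels of 6.16, 6.07 and 5.97 on the M1 arrays and -2.12, -2.20 and -1.65 on the M2 arrays (difference 8.05 ± 0.16). The group levels of Cxcl10 and Il1b lie far apart, with no array of either group near the other. Il6 had levels of 3.03, 3.36 and 2.93 on the M1 arrays and -2.39, -1.83 and -2.26 on the M2 arrays and Tnf of 3.30, 3.18 and 3.05 on the M1 arrays and -1.71, -1.93 and -1.69 on the M2 arrays, differences of 5.27 ± 0.18 and 4.95 ± 0.11. Nos2, the inducible nitric oxide synthase, had levels of 3.70, 3.49 and 4.76 on the M1 arrays and 1.93, 1.86 and 1.82 on the M2 arrays. All M2 arrays lay above the 75th percentile of their array for Nos2, and the 4.33-fold difference carried a wide spread in M1, where replicate 4 was highest.

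Among the other M1 markers, Ccl5 was 150-fold higher in M1, Marco, a scavenger receptor, 122-fold, Il1a 152-fold, Cd38, an NAD-consuming ectoenzyme, 47.9-fold and Fpr2, a formyl peptide receptor, 37.3-fold. Ptgs2, the inducible cyclooxygenase, was 29-fold higher, Socs3, a brake on cytokine signalling, 33.5-fold, and Gpr18 12.6-fold. The costimulatory genes Cd40 and Cd86 were higher by 2.70 and 3.42 on the log2 scale. Cxcl9 was 38.5-fold higher by its brightest probe, and its other probe differed by 9.84 on the log2 scale. Ccr7, a homing receptor, was at least 3.7-fold higher (2.12-fold), against 2.25-fold with normexp. Slamf1 was at least 2.38-fold higher (1.36-fold), against 2.29-fold with normexp, and was without its call under a common floor. Il12b and Il23a, cytokine subunits, were called higher in M1 but lay near background, with bounds of only 1.56-fold and 1.13-fold, which vanish with the higher floor. Irf5, a transcription factor, was 1.55-fold higher. Il12a (difference 1.15 ± 0.45) and Cd80 (0.20 ± 0.15) were not called.

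**Figure D2:**
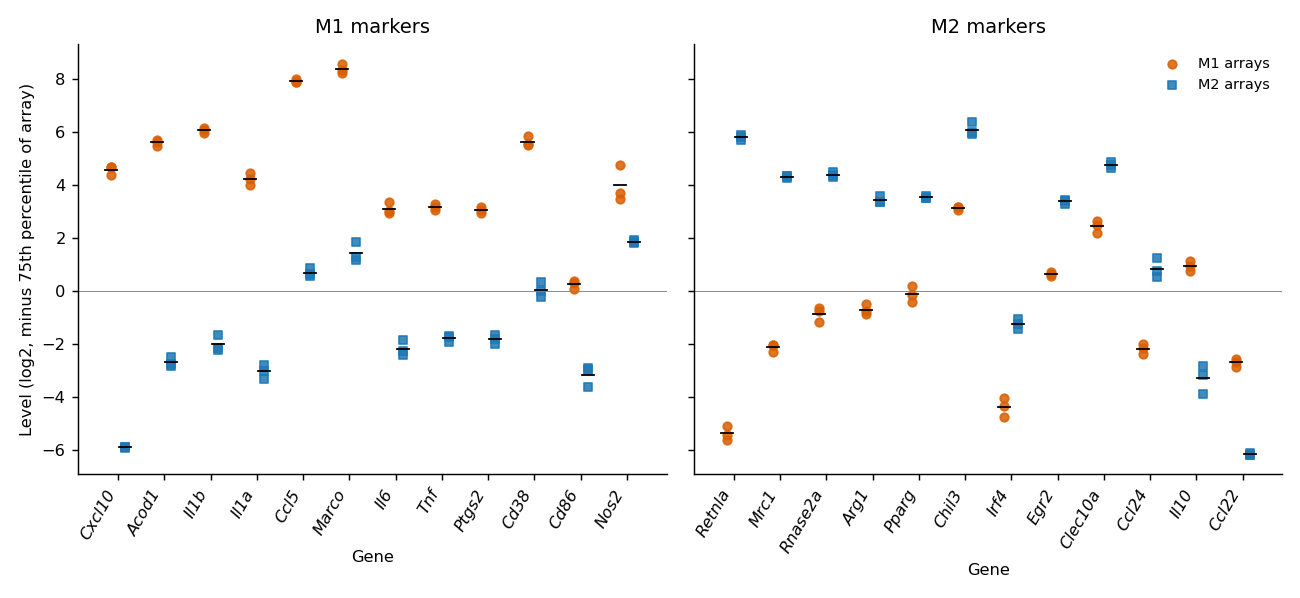
Level on each array (log2 signal minus the array's 75th percentile) of 24 genes, 12 M1 markers on the left and 12 M2 markers on the right. Orange circles are the 3 M1 arrays and blue squares the 3 M2 arrays, and horizontal bars are group means. The genes were picked by hand from the marker lists, and Cd80, Il12a, Cish and Mgl2, which were not called, are not drawn. The groups do not overlap for any of the 24 genes, nor for 51.6% of all genes tested. Ccl22 and Il10, written as M2 markers, lie higher on the M1 arrays.

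Cytokine genes were mostly higher in M1. Of 29 tested, 20 were higher in M1 and 3 in M2, with a median difference of 1.92. Il1rn, the antagonist of the interleukin-1 receptor, was 47.5-fold higher in M1, together with the agonists Il1a and Il1b from the same region of chromosome 2. Il18 was 13.4-fold higher and Ebi3, a subunit of IL-27, 13.8-fold higher in M1. Igf1, insulin-like growth factor 1, was 4.15-fold higher in M2 by its brightest probe. Its other 4 probes differed by -2.03 to -4.73 on the log2 scale. Of 30 cytokine receptor genes tested, 13 were higher in M1 and 6 in M2 (median 0.42). Il13ra1, a chain of a receptor for IL-4 and IL-13, had levels of 1.02, 1.10 and 0.95 on the M1 arrays and -1.72, -1.68 and -1.67 on the M2 arrays and was 6.55-fold higher in M1. Tnfrsf1b was 3.53-fold and Il10ra 2.59-fold higher in M1, and Il6st, the signalling chain gp130, 4.22-fold higher in M2.

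Chemokine ligands followed the cytokines in direction. Of 29 tested, 21 were higher in M1 and 1 in M2 (2 without M2 replicate 3), with a median of 2.08. Cxcl3, a neutrophil attractant, was at least 96.5-fold higher (55.3-fold, and 50.8-fold with normexp) and its neighbour Cxcl2 had levels of 4.0, 4.10 and 3.59 on the M1 arrays and -3.38, -3.15 and -2.78 on the M2 arrays, 128-fold higher. Ccl3 was 45.3-fold and Cxcl16 12-fold higher in M1. In the chromosome 5 cluster 8 of 9 tested Cxcl genes were higher in M1, and in the chromosome 11 cluster 8 of 10 Ccl genes. The 1 ligand higher in M2 was Ccl24, an eosinophil attractant (8.1-fold). Of 16 receptors tested, 6 were higher in M1 and 4 in M2 (median 0.51). Cxcr4 was 9.34-fold, Cxcr2 3.62-fold and Ccr2, the monocyte receptor for Ccl2, 2.75-fold higher in M2. The Ccr2 difference fell from -1.46 to -0.43 and lost its call when all signals under a common floor were raised to it. Ccrl2 was 5.87-fold and Cxcr6 1.91-fold higher in M1.

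The receptors and sensors of microbes were higher in M1 in 22 of 32 tested genes and in M2 in 1, with a median of 1.44. Tlr2, a receptor of bacterial lipoproteins, was 21.2-fold higher in M1 (well above background on 2 of 3 M2 arrays) and Tlr1 7.49-fold. Nod2, which senses a bacterial wall fragment, was 10-fold and Nlrp3, a sensor that forms an inflammasome, 7.47-fold higher. The sensors of viral RNA Ddx58, Ifih1 and Dhx58 were 11.1-fold, 13-fold and 10-fold higher in M1. Tlr4, the receptor of LPS itself, named after its value was seen, had levels of 0.85, 0.50 and 0.90 on the M1 arrays and 1.07, 0.92 and 1.04 on the M2 arrays and was not called (difference -0.26 ± 0.13, adjusted p = 0.158). Among 23 genes of the NF-kB pathway, 19 were higher in M1 and 1 in M2 (median 1.80), the latter 0 without any one array other than M1 replicate 2. They include the inhibitors Nfkbia (4.33-fold), Nfkbie (7.19-fold) and Tnfaip3 (4.7-fold), which limit the pathway, the kinase Ikbke (7.64-fold) and the adaptor Traf1 (18.3-fold).

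Promoter sequences of 3 chemokine and cytokine genes high in M1 are printed because each holds the letters searched for NF-kB. They are the 250 bases before the RefSeq start of transcription on GRCm38.p6, 5′ to 3′ on the strand of the gene, and capitals mark the motifs of NF-kB, ISRE and STAT6, each of 10 bases with 2, 2 and 4 free positions in the middle, and the TATA box, whose letters are TATAAA, searched on both strands. The genes were chosen after the matches were seen.
Cxcl2 (chr5:90903649-90903898, forward strand): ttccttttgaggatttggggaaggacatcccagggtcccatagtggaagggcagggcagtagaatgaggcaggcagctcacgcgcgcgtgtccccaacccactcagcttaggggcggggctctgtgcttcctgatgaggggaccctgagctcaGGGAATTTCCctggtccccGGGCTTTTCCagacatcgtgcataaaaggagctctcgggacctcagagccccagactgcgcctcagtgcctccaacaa
Cxcl3 (chr5:90785851-90786100, forward strand): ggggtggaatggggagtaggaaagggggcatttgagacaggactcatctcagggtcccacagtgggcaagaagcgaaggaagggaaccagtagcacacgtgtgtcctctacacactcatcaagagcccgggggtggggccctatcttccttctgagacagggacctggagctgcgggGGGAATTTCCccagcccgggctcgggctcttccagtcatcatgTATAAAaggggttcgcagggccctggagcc
Il6 (chr5:30012864-30013113, forward strand): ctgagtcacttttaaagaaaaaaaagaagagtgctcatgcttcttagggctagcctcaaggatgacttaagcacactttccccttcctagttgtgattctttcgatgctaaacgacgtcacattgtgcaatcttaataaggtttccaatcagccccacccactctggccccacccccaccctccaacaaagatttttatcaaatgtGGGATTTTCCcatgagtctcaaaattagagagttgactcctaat
The promoter of Cxcl2 holds 2 NF-kB matches, which begin 97 and 78 bases before the start, and that of Cxcl3 holds 1 at 73 bases with a TATA match at 30 bases. The Il6 promoter holds 1 NF-kB match at 44 bases. Over all genes tested that the table covers (13218 genes, 16482 windows of 300 bases), 1.64% of windows held the NF-kB letters. The share was 3.56% (17 of 477 windows) among called genes at least 4-fold higher in M1 and 1.97% (5 of 254) among those at least 4-fold higher in M2. A match is a description of letters, not a site of binding.

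Interferon-stimulated genes, the antiviral genes that type I interferon turns on, were higher in M1 with 1 exception. Of 40 tested, 39 were higher in M1 and none in M2, with a median of 4.82. Ifit1, which binds viral RNA, had levels of 2.89, 2.92 and 3.30 on the M1 arrays and -6.15, -5.58 and -6.20 on the M2 arrays and was at least 122-fold higher (70-fold, and 59-fold with normexp). Ifit3 had levels of 5.94, 5.80 and 6.07 on the M1 arrays and -2.63, -2.61 and -2.19 on the M2 arrays, 342-fold higher, and Cmpk2, a mitochondrial nucleotide kinase, was 196-fold higher. Mx1 was 85.7-fold, Isg15, a ubiquitin-like modifier, 61.8-fold, Isg20, an exonuclease, 68.7-fold and Oasl2 28.1-fold higher. Slfn1, Slfn4, Oasl1 and Ifi206 were at least 270-fold, at least 45.9-fold, at least 89.5-fold and at least 116-fold higher (155-fold, 26.3-fold, 51.3-fold and 66.6-fold with the higher floor). With normexp their folds were smaller, at 94.5-fold, 25.1-fold, 38.7-fold and 49.7-fold. The 1 member not called, Iigp1, named after its value was seen, had a difference of 0.27 ± 0.10 by its brightest probe and 7.55 by its other probe.

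The same direction held along the chromosomal clusters of these families. All 11 tested guanylate-binding protein genes (Gbp) and all 11 tested Ifi200 genes were higher in M1, with medians of 5.03 and 3.16. So were 5 of 6 Ifit genes on chromosome 19 (median 7.47), 11 of 12 Oas genes (2.25) and 6 of 8 Slfn genes (3.0). Within the Gbp genes Gbp3 was 102-fold, Gbp7 36.3-fold and Gbp2 35.2-fold higher. Ifi209 was 102-fold higher. Members of these families are close copies of each other, and signal of 1 member on the probe of another was not tested.

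Promoters of 4 interferon-stimulated genes are printed for the ISRE, the letters that interferon regulatory factors are known to recognise. Capitals and coordinates are as for the chemokines, and the genes were chosen after the matches were seen.
Cxcl10 (chr5:92348890-92349139, reverse strand): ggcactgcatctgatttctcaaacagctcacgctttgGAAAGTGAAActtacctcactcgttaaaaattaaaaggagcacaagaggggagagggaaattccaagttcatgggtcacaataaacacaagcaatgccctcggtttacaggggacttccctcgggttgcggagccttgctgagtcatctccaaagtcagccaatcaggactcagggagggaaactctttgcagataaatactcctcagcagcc
Ifit1 (chr19:34640639-34640888, forward strand): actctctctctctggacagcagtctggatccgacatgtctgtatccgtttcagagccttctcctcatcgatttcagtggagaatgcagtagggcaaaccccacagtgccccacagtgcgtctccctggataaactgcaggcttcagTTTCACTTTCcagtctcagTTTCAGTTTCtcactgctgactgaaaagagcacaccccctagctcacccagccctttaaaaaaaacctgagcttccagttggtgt
Ifit3 (chr19:34583279-34583528, forward strand): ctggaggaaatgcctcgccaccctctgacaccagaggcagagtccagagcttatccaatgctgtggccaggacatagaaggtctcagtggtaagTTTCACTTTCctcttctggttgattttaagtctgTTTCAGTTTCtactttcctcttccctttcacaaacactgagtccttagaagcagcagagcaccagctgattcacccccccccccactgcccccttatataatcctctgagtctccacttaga
Isg15 (chr4:156200819-156201068, reverse strand): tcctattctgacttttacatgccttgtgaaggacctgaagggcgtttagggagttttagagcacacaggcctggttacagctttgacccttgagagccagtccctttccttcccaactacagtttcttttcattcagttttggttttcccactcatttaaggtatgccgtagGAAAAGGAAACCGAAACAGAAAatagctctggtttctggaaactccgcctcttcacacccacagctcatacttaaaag
Ifit1 and Ifit3 each hold 2 ISRE matches, at 104 and 85 bases and at 156 and 122 bases before the start. Isg15 holds 3, which begin at 78, 72 and 66 bases so that neighbours overlap, and Cxcl10 holds 1 at 213 bases. Among called genes at least 4-fold higher in M1, 79 of 477 windows (16.6%) held the ISRE letters, against 3.34% of windows of all genes tested, 2.83% of windows of genes not called, and 4 of 254 windows (1.57%) of genes at least 4-fold higher in M2.

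**Figure D3:**
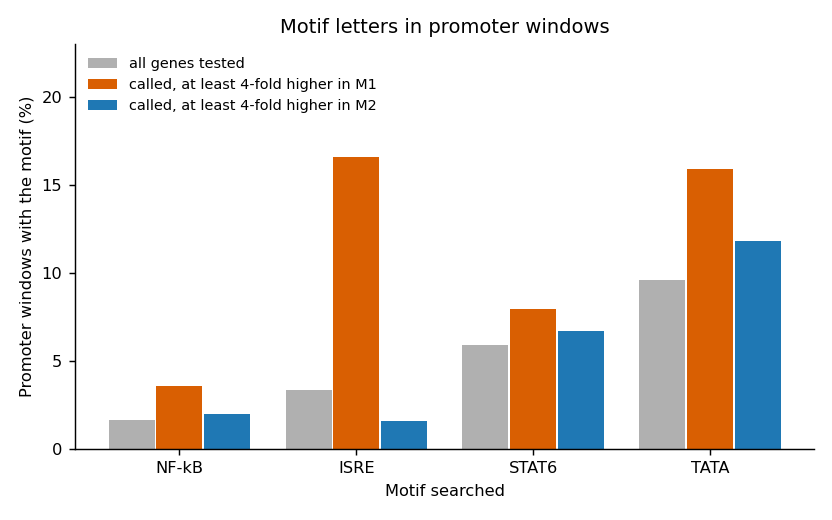
Share of RefSeq promoter windows (percent, y axis) that hold each of 4 motifs, in windows of all genes tested (grey), of called genes at least 4-fold higher in M1 (orange) and at least 4-fold higher in M2 (blue). The ISRE bar of the M1 genes stands at 16.6% against 3.34% for all genes tested, and the other motifs differ less.

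Genes of antigen presentation on MHC class I were higher in M1 in 15 of 19 tested, with none higher in M2 and a median of 1.48. Tap1 and Tap2, which carry peptides into the endoplasmic reticulum, were 7.68-fold and 3.94-fold higher, the immunoproteasome subunits Psmb8 and Psmb9 4.35-fold and 4.43-fold, and H2-K1 2.81-fold. The other Psmb9 probe differed by 0.99 and was not called. Nlrc5, a regulator of MHC class I genes, was 9.6-fold higher, while its other probe differed by 0.42. MHC class II genes showed no such common direction. Of 12 tested, 3 were higher in M1 and 3 in M2 (median -0.17). H2-Ab1 was 1.57-fold, the regulator Ciita 1.58-fold and H2-Oa at least 2.48-fold (1.42-fold, and 1.87-fold with normexp) higher in M1. Ciita lost its call without M2 replicate 2 or M2 replicate 3. H2-Eb1 was 1.55-fold, H2-DMa 1.81-fold and the lysosomal reductase Ifi30 3.83-fold higher in M2. Of 17 costimulatory and checkpoint genes, 7 were higher in M1 and 4 in M2. Cd274, which encodes PD-L1, was 6.49-fold, Lgals9 6.21-fold and Icosl 6.37-fold higher in M1, Icosl being well above background on 2 of 3 M2 arrays. Cd200r1, an inhibitory receptor, was 2.93-fold higher in M2.

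M2 markers were mostly higher in M2, with exceptions. Of 29 listed, 25 were tested, and of these 19 were higher in M2 and 4 in M1, with a median of -2.31. Mrc1, the mannose receptor, had levels of 4.36, 4.34 and 4.25 on the M2 arrays and -2.02, -2.27 and -2.02 on the M1 arrays and Arg1, arginase 1, of 3.36, 3.59 and 3.36 on the M2 arrays and -0.76, -0.85 and -0.50 on the M1 arrays. The differences were -6.42 ± 0.10 and -4.14 ± 0.13. Rnase2a, an eosinophil-associated ribonuclease, was 37.5-fold higher in M2 with levels of 4.29, 4.36 and 4.48 on the M2 arrays and -0.76, -1.17 and -0.62 on the M1 arrays. The chitinase-like Chil3 (Ym1) had levels of 6.00, 5.92 and 6.36 on the M2 arrays and 3.16, 3.17 and 3.07 on the M1 arrays, high in both groups and 7.79-fold higher in M2, and Chil4 (Ym2) was 9.27-fold higher. For all of Mrc1, Arg1, Rnase2a and Chil3 the lowest M2 array lay above the highest M1 array. The groups likewise did not overlap, in either direction, for 51.6% of all genes tested, so this is not particular to these markers.

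The 5 transcription factors of the list were higher in M2. Pparg, a nuclear receptor of fatty acids, was 12.7-fold, Irf4 8.74-fold (3.03-fold with normexp, well above background on 1 of 3 M1 arrays), Egr2 6.64-fold, Klf4 5.51-fold and Myc 1.5-fold higher. Clec10a, a lectin, was 4.96-fold, Flt1, a receptor of vascular growth factors, 11.7-fold and the haemoglobin scavenger receptor Cd163 2.29-fold higher in M2. Of the 3 probes of Flt1, one gave a difference of only -0.63. Socs2, Pdcd1lg2, Il4i1 and Tgm2 were 1.66-fold, 1.58-fold, 1.43-fold and 1.33-fold higher in M2. Other Socs2 probes differed by -0.70 and -0.39. The call of Tgm2 was lost without any one of the 6 arrays, that of Il4i1 without M1 replicate 2, M1 replicate 3 or M2 replicate 4, and that of Cd163 without M2 replicate 3 or under a common floor. Cish (-0.24 ± 0.09) and Mgl2 (-0.15 ± 0.08) were not called. The 4 listed genes higher in M1 were Il10, Ccl22, Ccl17 and Slc7a2. Il10, an anti-inflammatory cytokine, had levels of 0.78, 0.95 and 1.15 on the M1 arrays and -3.15, -2.81 and -3.87 on the M2 arrays, 18.8-fold higher in M1 (8.63-fold with normexp) and well above background on 1 of 3 M2 arrays. Ccl22, a ligand of CCR4, was at least 2.31-fold higher in M1 (1.33-fold), its relative Ccl17 2.13-fold, and the arginine transporter Slc7a2 1.62-fold.

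Most tested members of the gene families that hold these markers were higher in M2. On chromosome 14, 4 of 5 tested Ear genes were higher in M2 (median -3.46), with Ear2 14-fold and Ear10 8.23-fold. On chromosome 3, 4 of 5 chitinase-like genes were higher in M2, and Chia1, acidic chitinase, was called higher in M1 near background with a bound of 1.43-fold, which vanishes with the higher floor. Of 3 resistin family genes, Retnla and Retnlg were higher in M2, Retnlg at least 31.8-fold (16.6-fold), against 8.06-fold with normexp. Retnlg is also listed among the neutrophil markers. Retn was not called by its brightest probe (-0.15 ± 0.08) but differed by -1.95 by its other probe. The Ear genes are close copies, and sharing of signal between their probes was not tested.

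Promoters of 3 genes high in M2, chosen after the matches were seen, are printed for the STAT6 letters, the spaced palindrome that STAT6 is known to bind.
Retnla (chr16:48842359-48842608, forward strand): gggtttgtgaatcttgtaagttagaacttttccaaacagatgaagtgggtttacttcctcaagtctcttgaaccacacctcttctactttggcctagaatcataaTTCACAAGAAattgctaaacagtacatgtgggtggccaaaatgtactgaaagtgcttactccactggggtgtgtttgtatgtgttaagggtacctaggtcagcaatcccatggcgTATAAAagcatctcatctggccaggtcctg
Retnlg (chr16:48872358-48872607, forward strand): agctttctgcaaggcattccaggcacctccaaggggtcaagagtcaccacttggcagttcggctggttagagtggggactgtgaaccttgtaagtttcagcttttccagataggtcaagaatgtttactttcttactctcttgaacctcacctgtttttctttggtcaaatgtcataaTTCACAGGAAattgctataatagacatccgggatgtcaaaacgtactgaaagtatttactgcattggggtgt
Itgax (chr7:128129300-128129549, forward strand): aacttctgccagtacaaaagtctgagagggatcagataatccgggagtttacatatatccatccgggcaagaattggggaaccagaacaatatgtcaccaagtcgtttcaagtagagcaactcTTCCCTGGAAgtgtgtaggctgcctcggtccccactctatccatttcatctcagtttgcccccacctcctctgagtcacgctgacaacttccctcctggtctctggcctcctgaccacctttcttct
The match begins 145 bases before the start in Retnla, 72 in Retnlg and 127 in Itgax. The STAT6 letters were in 6.69% of windows (17 of 254) of genes at least 4-fold higher in M2, in 7.97% (38 of 477) of those higher in M1 and in 5.91% of windows of all genes tested. TATA letters were in 15.9%, 11.8% and 9.6% of windows of genes higher in M1, higher in M2 and all genes tested.

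Signalling genes were more often higher in M1. Of 21 genes of the JAK, STAT and SOCS families, 11 were higher in M1 and 2 in M2 (median 0.32). Stat2 was 9.42-fold, Stat3 2.71-fold and Socs1 5.19-fold higher in M1. Stat6 itself, named after its value was seen, had levels of 2.47, 2.37 and 2.44 on the M1 arrays and 2.23, 2.32 and 2.33 on the M2 arrays and was not called (difference 0.13 ± 0.08). Of 39 transcription factors linked to polarization, 14 were higher in M1 and 12 in M2 (median 0.01). Batf was 10.9-fold, Spic 9.51-fold and Hif1a, the hypoxia-inducible factor, 4.48-fold higher in M1, and Cebpa 4.67-fold and Bhlhe40 3.1-fold higher in M2.

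Genes of arginine and glycolytic metabolism differed by enzyme rather than as a block. For arginine, Arg1 was higher in M2 and Nos2 in M1, as their levels show. Ass1, which rebuilds arginine from citrulline, was 2.26-fold and Gch1, which makes a cofactor of nitric oxide synthase, 6.58-fold higher in M1. The transporter Slc7a1 was 2.51-fold and the spermidine synthase Srm 2.1-fold higher in M2. Of 29 genes of glycolysis and the pentose phosphate path, 15 were higher in M1 and 8 in M2 (median 0.46). Pfkfb3, which makes the activator of phosphofructokinase, had levels of 4.23, 3.90 and 4.57 on the M1 arrays and 1.78, 1.48 and 1.51 on the M2 arrays and was 6.23-fold higher in M1. The glucose transporter Slc2a1 was 3.7-fold, Slc2a6 6.2-fold, the lactate exporter Slc16a3 4.63-fold and Pfkl, a phosphofructokinase, 3.4-fold higher in M1. Taldo1, of the pentose phosphate path, was 2.2-fold and Pfkfb4 2.26-fold higher in M2.

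Genes of the citric acid cycle and the respiratory chain were more often higher in M2. Of 24 genes of the citric acid cycle and its branches, 2 were higher in M1 and 13 in M2 (median -0.35), and the 2 became 1 without any one array other than M1 replicate 4. Acod1, which draws on the cycle, was the largest difference of the list, with levels of 5.63, 5.48 and 5.70 on the M1 arrays and -2.74, -2.80 and -2.49 on the M2 arrays. Idh1 and Idh2, the cytosolic and a mitochondrial isocitrate dehydrogenase, were 4.64-fold and 4.24-fold higher in M2. The levels of Idh2 were 3.19, 3.17 and 3.11 on the M2 arrays and 1.19, 1.04 and 0.98 on the M1 arrays. Fh1, fumarase, was 2.38-fold, Suclg2 2.06-fold and Idh3a 1.72-fold higher in M2. Of 25 respiratory chain genes, 1 was higher in M1 and 14 in M2 (9 without replicate 4 of both groups, median -0.32), among them Ndufs1 (1.95-fold), Uqcrc1 (1.68-fold) and Ppargc1b, a coactivator of mitochondrial genes (2.26-fold, not called under a common floor).

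Lipid genes were likewise higher in M2 more often. Of 24 genes of fatty acid oxidation and storage, 4 were higher in M1 and 12 in M2 (median -0.41). Lipa, the lysosomal acid lipase, was 8.62-fold, Lpl, lipoprotein lipase, 7.73-fold and Cd36, a fatty acid receptor, 4.1-fold higher in M2. Acsl1, which activates fatty acids, was 10-fold higher in M1. Of 25 genes of cholesterol synthesis and efflux, 3 were higher in M1 and 15 in M2 (median -0.82). The synthesis genes Fdft1, Dhcr7, Fdps and Idi1 were 4.16-fold, 3.17-fold, 2.81-fold and 2.45-fold higher in M2, as was their regulator Srebf2 (2.49-fold). Abca1, which exports cholesterol, was 4.75-fold higher in M1.

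**Figure D4:**
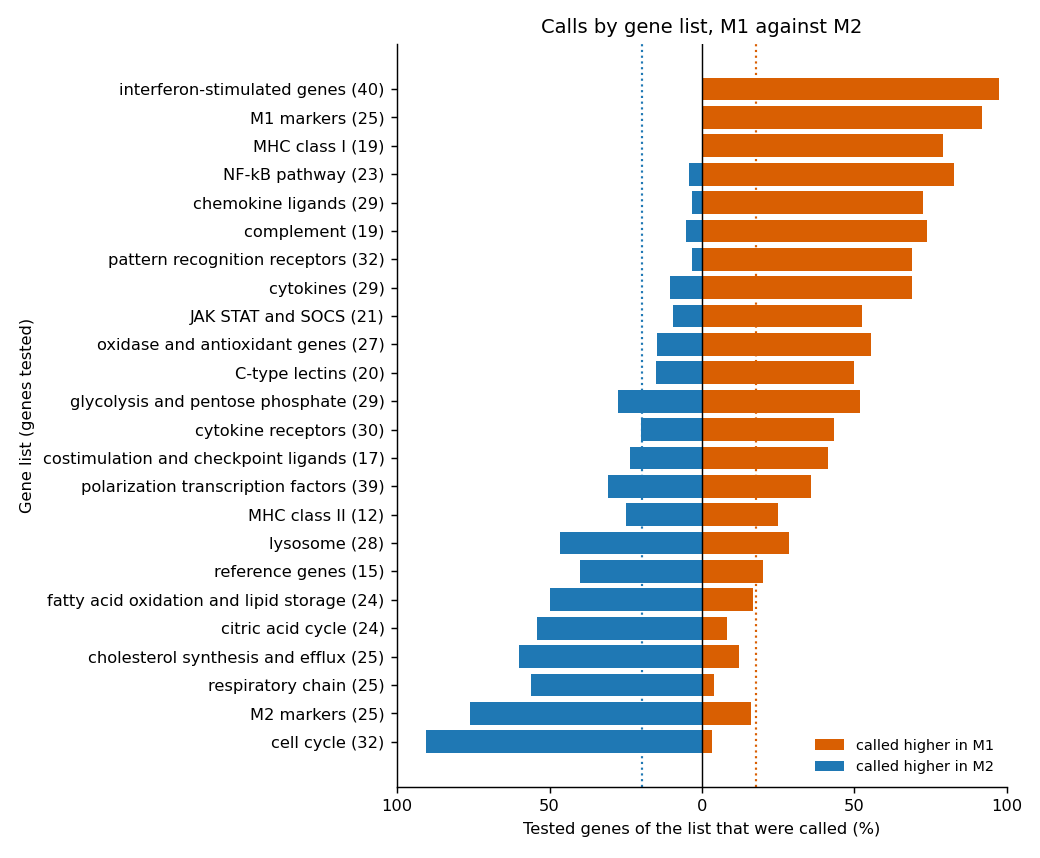
Number of tested genes called higher in M1 (orange, to the right) and higher in M2 (blue, to the left) in 24 gene lists, as a percentage of the tested genes of each list, with the number tested in brackets. Dotted lines mark the same shares over all 26192 genes tested, 17.6% and 19.8%. Interferon-stimulated genes and cell cycle genes lie at the ends of the order.

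Cell cycle genes were higher in M2 with few exceptions. Of 32 tested, 29 were higher in M2 and 1 in M1 (0 without M1 replicate 3 or M2 replicate 3), with a median of -1.40. Ccnd1, cyclin D1, had levels of 3.72, 3.56 and 3.64 on the M2 arrays and 1.72, 1.73 and 1.76 on the M1 arrays and Mcm7, a subunit of the replicative helicase, of 3.88, 3.80 and 4.0 on the M2 arrays and 2.01, 2.05 and 2.06 on the M1 arrays. Both groups are tight and far apart, 3.75-fold and 3.61-fold. Ccna2, cyclin A2, was 5.09-fold, Birc5, survivin, 4.68-fold, Cdc20 3.48-fold and Mcm2 3.5-fold higher in M2. Of 13 cell cycle inhibitors, 2 were higher in M1 and 4 in M2 (2 without replicate 4 of both groups), beside 17.6% and 19.8% of all genes tested. These counts rest on the brightest probes, and other probes of some members not called were themselves called higher in M2. Cdkn2c was 3.65-fold higher in M2 and Btg1 2.61-fold higher in M1 by its brightest probe, while another probe gave a difference of 0.17. Of 18 genes of the integrated stress and heat shock responses, 3 were higher in M1 and 8 in M2, and the 3 became 0 or 1 without any one array other than M1 replicate 3. The amino acid synthesis genes Asns, Phgdh and Psat1 were 3.13-fold, 3.61-fold and 2.89-fold higher in M2. Of 19 constitutive proteasome genes, 6 were higher in M1 and none in M2 (median 0.25), and only 3 without M2 replicate 2 or without M2 replicate 3.

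Lipid mediator and iron genes each held large differences in both directions, while oxidase and antioxidant genes were mostly higher in M1. Ptgs1, the constitutive cyclooxygenase, had levels of 0.12, -0.02 and 0.62 on the M2 arrays and -3.48, -3.40 and -2.75 on the M1 arrays, 10.9-fold higher in M2, against the inducible Ptgs2 in M1. Alox5, 5-lipoxygenase, was 5.45-fold and Lta4h, the next enzyme toward leukotriene B4, 2.01-fold higher in M2. Pla2g7 was 5.93-fold and the prostaglandin receptor Ptger4 4.68-fold higher in M1. Among 27 oxidase and antioxidant genes, 15 were higher in M1 and 4 in M2. Sod2, the mitochondrial superoxide dismutase, was 14.6-fold, Prdx5 6.81-fold and Cybb, the catalytic subunit of the phagocyte oxidase, 7.4-fold higher in M1. For iron, the transferrin receptor Tfrc had levels of 4.51, 4.52 and 4.54 on the M2 arrays and 0.69, 0.65 and 0.43 on the M1 arrays and the iron exporter Slc40a1 was 5.03-fold higher, both in M2. Tfrc differed by 15.3-fold, with the M2 arrays within a narrow range. Cp, ceruloplasmin, was 23.2-fold, Slc11a1, an iron transporter of the phagosome, 3.98-fold and Lcn2, which binds bacterial siderophores, 3.67-fold higher in M1.

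Surface receptors were split by gene. Itgax, which encodes CD11c, one of the proteins used to sort the kidney cells of the study, had levels of 2.99, 3.04 and 3.1 on the M2 arrays and -1.16, -1.22 and -0.97 on the M1 arrays and was 17.8-fold higher in M2. Itgal was 7.54-fold and Icam1 12.1-fold higher in M1. Other Itgal probes differed by 3.04 and 0.98. Of 20 C-type lectins, 10 were higher in M1 and 3 in M2. Clec4e (Mincle) was 165-fold higher in M1 (45.1-fold with normexp) with 1 of 3 M2 arrays well above background, and Clec4n (Dectin-2) 14.7-fold. Clec7a (Dectin-1) had levels of 5.67, 5.70 and 5.56 on the M2 arrays and 3.58, 3.19 and 3.43 on the M1 arrays, 4.72-fold higher in M2. Fcgr4 was 3.85-fold higher in M1, and Gas6, a ligand that bridges to dying cells, 5.05-fold higher in M2. Trem2 was 2.31-fold higher in M2 and Siglece and Siglec1 were 7.3-fold and 3.89-fold higher in M1.

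Complement genes were mostly higher in M1. Of 19 complement genes, 14 were higher in M1 and 1 in M2 (median 0.70). C3 was 5.17-fold, C2 6.87-fold and the inhibitor Serping1 9.57-fold higher in M1, beside Cfb. Of 25 matrix proteases and inhibitors, 12 were higher in M1 and 5 in M2. Mmp14 was 7.18-fold, Serpinb2 14.4-fold and Timp1 4.12-fold higher in M1. Of 28 lysosomal genes, 8 were higher in M1 and 13 in M2 (8 without replicate 4 of both groups). Ctsc and Ctsh, cathepsins, were 3.67-fold and 3.66-fold higher in M1, and Npc1, which exports cholesterol from the lysosome, 2.93-fold higher in M2. Among osteoclast and fusion genes, Atp6v0d2, a subunit of the proton pump, was 16.1-fold, Dcstamp, which cell fusion needs, 6.81-fold and Cd9 4.62-fold higher in M2. Car2, carbonic anhydrase 2, was 20.5-fold higher in M1, with 2 of 3 M2 arrays well above background.

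Genes often used as references for expression measurements were not all level between the groups. Of 15 tested, 3 (20%) were higher in M1 and 6 (40%) in M2, with a median of -0.19. Over all genes tested the shares were 17.6% and 19.8%, so the share higher in M1 is near that of all genes. Gusb was 3.67-fold higher in M2 by its brightest probe, while its other probe differed by -0.26, and B2m was 2.25-fold higher in M1. Hprt (-0.66), Rplp0 (-0.52), Sdha (-0.51), Eef2 (-0.38) and Rpl13a (-0.31, not called without any one of the M2 arrays) were higher in M2 and Actb (0.49) and Pgk1 (0.59) higher in M1. Among those not called were Polr2a (-0.27), Ppia (-0.19), Tbp (0.16), Ywhaz (0.04) and Tuba1b (0.03). The 3 tested Y-linked genes were not called either, and Xist, which was high on replicate 4 of each group alone, was not tested.

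**Figure D5:**
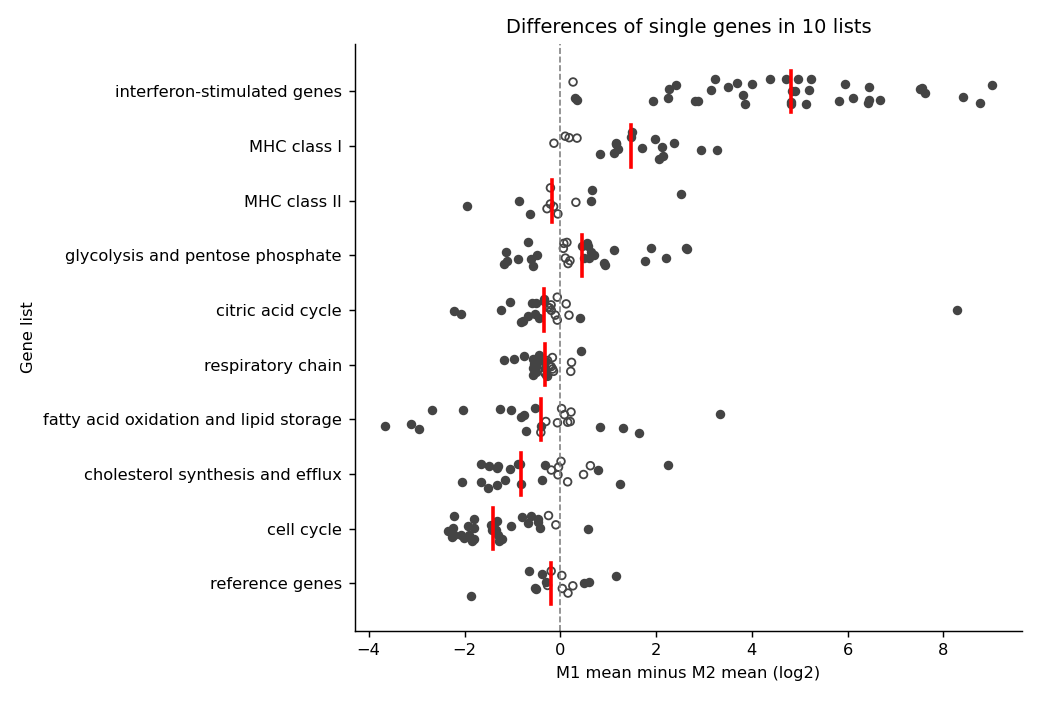
Difference between M1 and M2 (M1 mean minus M2 mean, log2, x axis) of each tested gene in 10 lists, 1 point per gene, filled where called and open where not, with the median of each list as a vertical bar and that of all genes tested as a dashed line at -0.00. Interferon-stimulated genes lie to the right, cell cycle genes to the left as far as -2.35 (Ccna2), and MHC class II and glycolysis genes on both sides.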

How the data were processed

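RNA of 12 samples was labelled with Cy3 and hybridized to one-colour Agilent arrays. The deposited intensity values are processed signals of Feature Extraction 10.7.3.1 (Agilent), as named per the file headers, with a background surface subtracted and a multiplicative trend removed. The deposited log2 value table correlates at r = 1 with log2 of these signals, matches them after scaling to the 75th percentile of each array (medians of the marrow arrays -2.46 to -2.35), and was used as an alternative only. Per the file headers, the array design uses mm9 coordinates.

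Spots flagged as outliers were left out (30 probes without a value), spots of 1 probe were averaged, and log2 signals were centred on the 75th percentile of each array. A probe was kept if well above background on all 3 arrays of M1 or of M2, and the brightest probe over the 6 arrays stood for a gene. Probes were named by RefSeq accession (27494), symbol (3544) or synonym (403), and 24210 carry the name of the array file. The fit of the 6 arrays, with no covariate, used limma 3.58.1 (R 4.3.3), and p-values were adjusted by Benjamini and Hochberg. The median residual SD was 0.151 on these arrays and 0.356 on the 6 renal arrays, which were left out. On simulated data with changes in 200 of 26192 genes and independent normal noise, the fit recovered 66% of 2-fold and 95% of 4-fold changes and called 10 of 25992 unchanged genes. In the data 37.4% of genes were called, a far larger share than was changed in the simulation. The adjusted p depends on that share, so these rates need not hold for the fit reported here. Promoters are RefSeq windows from 250 bases before to 50 after each start.

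Genes named are the 15 called genes with the largest difference in each direction without clone, accession, predicted or olfactory names, in each list the tested members of smallest p, 8 at most, and all M1, M2 and reference markers, except a few genes that are not reported here. Others are named as chosen after their values were seen. The samples, lists and rules were chosen with earlier results of these data known. Alternatives were normexp (offset 50), quantile normalization, median centring, the deposited values, other filters, a common floor, other uses of probes, all 12 arrays, other variance models, a replicate block, a 2-fold threshold, leaving out each array and leaving out replicate 4 of both groups (the last chosen after seeing the data). Figures were drawn with matplotlib 3.10.9 in Python 3.11.15.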

Additional observations from a re-analysis of the deposited data

How the results depend on the processing

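Of the 255 genes named here, 1 changed direction under any of 21 alternatives: Itgb3 went from 0.27 to -1.40 with the mean of a gene's probes. In all, 212 kept their direction and side of the threshold in every alternative that tested them. The count of 9806 called genes moved by over 1.5 times under only 2 settings, to 4822 in the fit of all 12 arrays, whose renal arrays had a higher residual SD, and to 3015 when a 2-fold difference was also required. Leaving out each array in turn gave 7841 to 8610 called genes. The share of calls higher in M1, 47.1% at first, was 45.3% with normexp, 45.8% with quantile normalization, 45.6% with the common floor, 39.5% with no filter on dim probes, 43.3% with only genes above background on all 6 arrays, 49.5% with all 12 arrays, 49% without replicate 4 of both groups (chosen after seeing the data) and 45.2% to 47.8% with an array left out. It reversed to 57.8% with the 2-fold threshold. Direction and call say little of size: with normexp, whose offset by its construction shrinks differences of dim genes, 68 named genes moved by over 1.5 times, all to smaller folds. No scaling moved the median of all genes by over 0.1. Of the 255 genes, 24 lost their call with all 12 arrays, 28 with the 2-fold threshold and 7 with the common floor. Under that floor Il12b and Il23a were not called, with differences of 0.24 and 0.00 in place of 2.50 and 1.60. Replicate numbers match the slide columns, and replicate 4 of both groups had high Xist, but whether same-numbered samples share a donor is not stated. The main fit took no pairing into account, and a replicate block was fitted as an alternative. Same-numbered M1 and M2 arrays deviated from their group means with correlations of -0.0544, 0.17 and 0.138, and M1 replicate 2 correlated best with M2 replicate 4. The fit with the replicate block called 9111 genes, 48% of them higher in M1, and 4 of the 255 genes (Itgb3, Rpl13a, Slfn5 and Tgm2) lost their call. Signal over background limits the dim genes: on M2 arrays fewer probes were well above background, and 1341 genes tested were above it on none of them, against 44 on no M1 array. The dimmest signal well above background was higher on the M2 arrays (-3.907 to -3.874) than on the M1 arrays (-4.921 to -4.745). Of the 1341 genes, 145 had a lower bound of 2-fold or more.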

Other observations

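A further pair of gene clusters was higher in M1 for most members. On chromosome 19, 11 of 14 tested Ms4a genes, which encode membrane proteins of immune cells, were higher in M1 and 1 in M2 (median 1.51). Ms4a6b was at least 61.4-fold higher in M1 (35.2-fold with the higher floor), against 23.8-fold with normexp, and Ms4a6c was 12.2-fold higher. On chromosome 16, all 5 tested stefin A genes, which encode inhibitors of cathepsins, were higher in M1 (median 3.0), among them Stfa3 (10.2-fold) and Stfa1 (8-fold). Both families consist of close copies, and sharing of signal between their probes was not tested.

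Some large differences depended on the probe that stood for the gene. Of 7812 genes with several kept probes, 5727 had a brightest probe within 0.5 of no difference on the log2 scale. Among these, 483 had another probe called at 2-fold or more, 98 at 4-fold or more (56 higher in M1, 42 higher in M2) and 20 at 8-fold or more (14 and 6). Ms4a4c differed by 0.35 with its brightest probe and by 8.99 and 7.60 with the others. Ptges, a prostaglandin E synthase, differed by 0.39 and by 4.84, and Slfn5 by 0.31 and by 3.1. Itgb3, an integrin of osteoclasts and platelets, differed by 0.27 and by -3.08. These genes were chosen after their values were seen. Over all genes with several probes, 62.6% had the same sign on every probe, and among the called genes with at least a 2-fold difference 93.8% of 747 did. Whether such probes lie on different transcripts or read other sequences was not tested.

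The share of called genes differed between kinds of transcript, and no reason was tested. Of 4098 lincRNA probes tested as genes, 25% were called (468 higher in M1, 558 in M2), beside 41.2% of 15585 protein-coding genes (3210 and 3206). Of 135 pseudogenes, 62.2% were called, 18 higher in M1 and 66 in M2. Olfactory and vomeronasal receptor genes were called in 18.9% of 449 with a median difference of 0.10.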
